A study of Mus musculus with 9 samples.

Results

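A group of 9 genes of the sarcomere backbone was followed in embryonic mouse heart, chosen by name, with earlier results of these data known: Ttn, Myom1, Myom2, Actn2, Ldb3, Tcap, Mybpc3, Nebl and Csrp3. They are 9 of the 24571 gene symbols used from the table, and all 9 had a mean level above the 1 TPM needed for testing, which 13682 genes reached. TPM is a level scaled to the total of the library and to the length of the transcript. The study asked what a point mutation of Ctcf, whose zinc-finger protein helps to fold chromatin, does to the developing heart. RNA was sequenced from hearts of E18.5 embryos, shortly before birth, in 3 genotypes with 3 libraries each. The wild-type group carried no mutation, the heterozygous group carried 1 Ctcf allele with R567W (an arginine-to-tryptophan change), and the homozygous group carried the change on both alleles. The line was made on a C57BL/6N background by CRISPR/Cas9 editing and the change is present in every cell, so an effect within cardiomyocytes cannot be told apart from one that starts in another cell type. In RNA from whole hearts, fewer cardiomyocytes and less RNA per cardiomyocyte cannot be told apart either.

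A sarcomere runs from one Z-disc to the next, with actin filaments anchored at the Z-discs and myosin filaments held in register at the M-band in its middle. Titin, the giant elastic protein encoded by Ttn, reaches from the Z-disc to the M-band and is bound at each end by other members of the group. Mutations in several of these genes are known causes of cardiomyopathy, and cardiomyocytes near birth assemble these proteins into regular sarcomeres.

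The group comprised titin, the M-band proteins myomesin (Myom1) and M-protein (Myom2), and 5 Z-disc proteins. These are alpha-actinin (Actn2), which cross-links actin, the PDZ and LIM protein encoded by Ldb3, telethonin (Tcap), which caps the titin end at the Z-disc, nebulette (Nebl), which binds actin, and muscle LIM protein (Csrp3). The ninth, Mybpc3, encodes cardiac myosin-binding protein C on the thick filament. In the GENCODE M21 annotation of mm10 the plus-strand genes are Myom1 at chr17:71002633-71126856, Myom2 at chr8:15057653-15133541, Tcap at chr11:98383811-98384953 and Mybpc3 at chr2:91118144-91136516. The minus-strand genes are Ttn at chr2:76703980-76982547, Actn2 at chr13:12269426-12340760, Ldb3 at chr14:34526603-34588682, Nebl at chr2:17343909-17731464 and Csrp3 at chr7:48830398-48848033. All 9 are annotated as protein-coding, and their longest annotated transcripts run from 948 bases for Tcap to 106824 bases for Ttn.

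The promoters of 5 members are shown because these are titin and the 4 genes whose levels followed each other most closely across libraries. The sequence comes from RefSeq promoter windows of GRCm38.p6, which held 7 of the 9 members in 12 windows, and only bases upstream of the annotated start and outside annotated exons are given, 5′ to 3′ on the gene's strand. Capitals mark matches to the MEF2 motif of muscle transcription factors, the CArG box bound by serum response factor, or AGATAA (the core bound by cardiac zinc-finger factors of the GATA family), found on either strand.
Ttn, chr2:76982548-76982797, minus strand: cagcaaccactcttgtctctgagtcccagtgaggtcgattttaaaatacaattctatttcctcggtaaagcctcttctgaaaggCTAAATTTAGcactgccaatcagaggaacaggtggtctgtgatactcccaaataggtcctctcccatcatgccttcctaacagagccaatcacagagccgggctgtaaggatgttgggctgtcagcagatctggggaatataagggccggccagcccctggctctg
Mybpc3, chr2:91117894-91118143, plus strand: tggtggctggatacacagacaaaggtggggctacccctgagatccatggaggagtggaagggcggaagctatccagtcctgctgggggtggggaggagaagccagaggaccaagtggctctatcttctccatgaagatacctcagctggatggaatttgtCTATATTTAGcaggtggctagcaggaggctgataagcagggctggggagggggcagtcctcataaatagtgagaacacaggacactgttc
Myom1, chr17:71019307-71019520, plus strand: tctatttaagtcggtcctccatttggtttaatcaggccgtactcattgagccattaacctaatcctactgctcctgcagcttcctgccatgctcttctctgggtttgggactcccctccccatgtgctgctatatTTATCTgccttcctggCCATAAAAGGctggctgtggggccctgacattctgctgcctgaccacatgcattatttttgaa
Ldb3, chr14:34588683-34588931, minus strand: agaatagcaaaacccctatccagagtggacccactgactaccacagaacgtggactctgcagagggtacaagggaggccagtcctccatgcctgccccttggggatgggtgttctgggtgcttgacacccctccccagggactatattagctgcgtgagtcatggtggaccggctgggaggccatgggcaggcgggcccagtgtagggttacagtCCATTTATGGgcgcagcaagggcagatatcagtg
Actn2, chr13:12340761-12340982, minus strand: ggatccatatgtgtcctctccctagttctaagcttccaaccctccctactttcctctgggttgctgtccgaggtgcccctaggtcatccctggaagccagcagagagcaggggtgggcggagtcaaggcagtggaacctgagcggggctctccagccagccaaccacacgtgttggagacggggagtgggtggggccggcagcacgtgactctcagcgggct

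The MEF2 motif was present in the upstream windows of Ttn, 166 to 157 bases before the start, and of Mybpc3, 90 to 81 bases before it. Of 32536 distinct upstream windows of 250 bases in the reference table, 2.89% held this motif. The CArG box was present in Myom1, 99 to 90 bases before the start, and in Ldb3, 35 to 26 bases before it, against 1.48% of all windows, and it also stood in 1 of the 4 Nebl windows. The start used for Myom1 lies inside its annotated gene span. The Ldb3 site also lies 109 to 100 bases before another annotated start of that gene. AGATAA, found in 9.97% of windows, was present in Myom1 and in 2 Nebl windows, and CATTCC, found in 12.6%, in 1 Nebl window. The E-box letters CANNTG, found in 66.2%, were present in 8 of the 12 member windows. No member window held TATAAA, present in 12.3% of all windows, or the CTCF core motif, present in 0.513%. Motifs did not overlap each other within the capitals shown, and these are letter matches only.

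The tissue and the libraries were checked first. The summed level of 10 cardiomyocyte markers was 43563 to 51678 TPM in 8 libraries and 35507 TPM in homozygous 3, the lowest. Of 12 skeletal muscle markers in the table, the myogenic genes Pax7, Myf5 and Myog and the embryonic myosin Myh3 were under 1 TPM in every library, and the list without Ckm, which the heart also expresses, summed to 16.4 to 31.7 TPM. Thymocyte markers summed to 582 TPM in homozygous 3 and to 0.56 to 2.78 TPM elsewhere, airway and lung markers reached 2626 TPM for wild type 1 and 1109 TPM for heterozygous 1, and liver markers reached 3188 TPM for heterozygous 1. Airway and lung markers were also at 52.8 TPM in homozygous 1 and 38.5 TPM in wild type 2, where the lowest library had 2.19 TPM. The 3 libraries with the most of such markers were homozygous 3, wild type 1 and heterozygous 1. Leaving these out took 1 library from each genotype, and 0 of 9 members were then called in each of the 3 comparisons. The part of the other organs' RNA in single values was not tested. Erythroid markers ranged from 2853 to 14604 TPM among wild-type, 5114 to 15544 TPM among heterozygous and 4305 to 5148 TPM among homozygous libraries, and fibroblast markers were lowest in homozygous 3 at 856 TPM. The 7 smooth muscle markers summed to 560, 626 and 670 TPM with wild type, 626, 441 and 656 TPM with heterozygotes and 492, 286 and 381 TPM with homozygotes, so homozygous hearts lay wholly below wild type, and the part of this in the members' values was not tested. Xist was above 1 TPM in wild type 1, homozygous 1 and all 3 heterozygous libraries, so sex and genotype are not balanced. Ctcf itself stood at 27.0, 29.0 and 34.3 TPM among wild-type libraries, at 33.8, 33.2 and 38.7 TPM among heterozygous and at 38.9, 41.4 and 50.2 TPM among homozygous ones. A point mutation leaves the transcript in place, so this level does not check the genotype labels.

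None of the 9 members passed the test in any of the 3 comparisons. Changes are differences of log2(TPM + 1) from limma fitted to all 9 libraries, with Benjamini-Hochberg adjustment over 13682 genes and a threshold of 0.05. Between homozygous and wild-type hearts 0 of 9 members were called, against 46 of 13682 genes, or 0.336%, and 0 had an unadjusted p under 0.05, against 25.0% of all genes. Between homozygous and heterozygous hearts 0 of 9 were called, against 0.0439% of all genes, and 1 member, Actn2, had an unadjusted p under 0.05, against 7.15%. Between heterozygous and wild-type hearts 0 of 9 were called, against 0.0146%, and 1 member, Myom1, had an unadjusted p under 0.05, against 6.87%. The 3 comparisons share libraries, so their values for a gene are not independent.

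**Figure D1:**
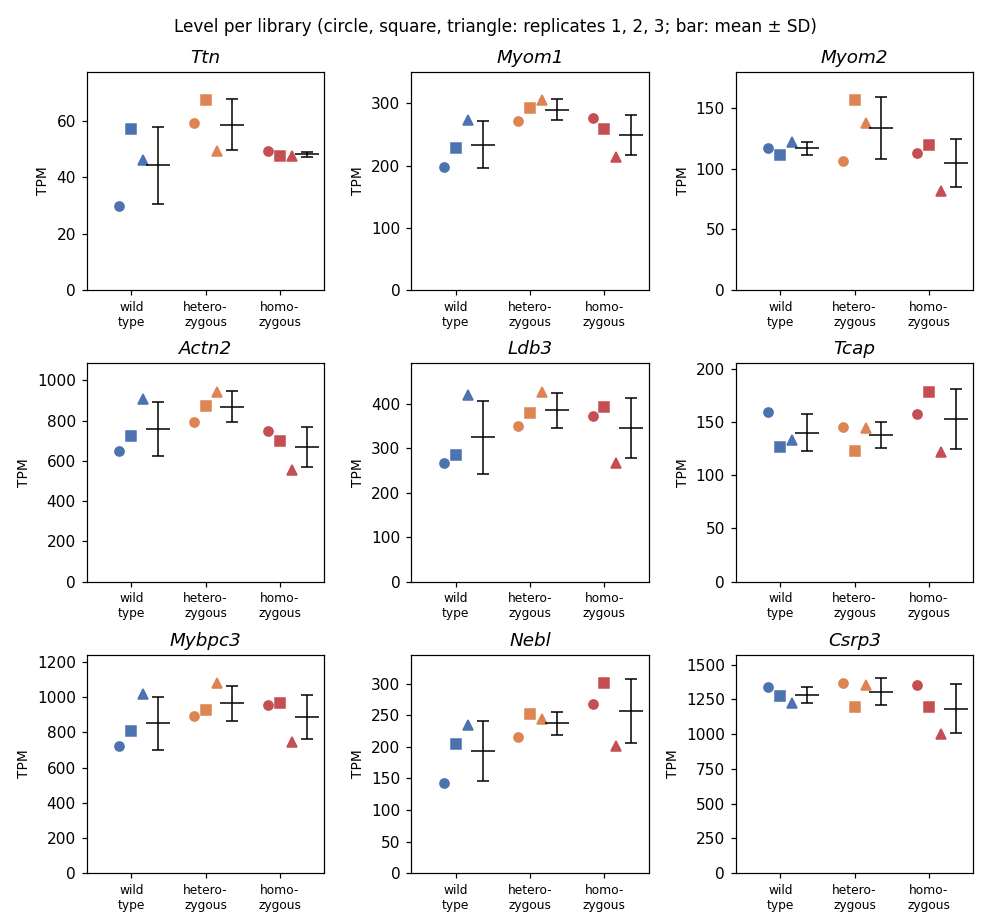
Level in TPM (vertical axes, from 0) of each of the 9 genes in the 9 libraries by genotype, with circles, squares and triangles for replicates 1, 2 and 3 and a bar for mean ± SD over 3 libraries. The wild-type and homozygous points overlap for all 9 genes, and Ttn was lowest in wild type 1 at 29.9 TPM.

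Titin transcripts were present at a modest level on the per-length scale. Ttn stood at 29.9, 57.1 and 46.1 TPM among wild-type libraries, at 59.5, 67.4 and 49.6 TPM among heterozygous and at 49.3, 47.6 and 47.6 TPM among homozygous ones. The 3 homozygous values were nearly equal and lay within the wild-type range, and all 3 were below the heterozygous values, the nearest by a small margin. Group means with SD (n = 3 each) were 44.4 ± 13.7 TPM for wild type, 58.8 ± 8.95 TPM for heterozygotes and 48.2 ± 0.987 TPM for homozygotes. The log2 change of homozygous against wild type was 0.16 (95% interval −0.29 to 0.62, limma adjusted p = 0.611). Against heterozygous hearts it was −0.27 (−0.73 to 0.18, adjusted p = 0.794), and heterozygous against wild type it was 0.44 (−0.02 to 0.89, adjusted p = 0.672). The change of homozygous against wild type depended on single wild-type libraries. It was −0.090 without wild type 1, 0.37 without wild type 2 and 0.22 without wild type 3.

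Neither M-band gene was called, and their estimates for homozygous against wild type had opposite signs as deposited, and were both below 0 after median-ratio scaling. Myom1 stood at 198, 228 and 273 TPM among wild-type libraries, at 271, 293 and 305 TPM among heterozygous and at 276, 259 and 213 TPM among homozygous ones. The heterozygous values were the highest in the group means, and heterozygous 1 still lay below wild type 3. The log2 change of heterozygous against wild type was 0.32 (95% interval 0.02 to 0.62, unadjusted p = 0.0391 and adjusted p = 0.672 by limma), while that of homozygous against wild type was 0.10 (−0.20 to 0.40, adjusted p = 0.638).

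Myom2 stood at 117, 112 and 122 TPM among wild-type libraries, at 106, 156 and 138 TPM among heterozygous and at 113, 119 and 81.8 TPM among homozygous ones. Its wild-type libraries were close to each other, and homozygous 3 was the lowest of all 9. The log2 change of homozygous against wild type was −0.18 (95% interval −0.55 to 0.20, limma adjusted p = 0.502), and against heterozygous hearts −0.35 (−0.72 to 0.03, adjusted p = 0.728). Without homozygous replicate 3 the first of these was −0.010.

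Within a library, the balance of the 2 M-band transcripts can be read without scaling between libraries. The log2 ratio of Myom2 to Myom1 was −0.98 ± 0.20 in wild-type, −1.13 ± 0.22 in heterozygous and −1.26 ± 0.13 in homozygous hearts (SD, n = 3 each). Myom2 therefore stood at 0.448 to 0.591 of Myom1 in wild-type hearts and 0.383 to 0.461 in homozygous hearts, 2 ranges that overlap. The difference between homozygous and wild-type hearts was −0.28 (exact two-sided permutation p = 0.2, adjusted p = 0.6 over 6 ratio comparisons). With 3 libraries against 3 the smallest p this test can give is 0.1.

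Of the 5 Z-disc genes, only Actn2 lay wholly lower in homozygous than in heterozygous hearts as deposited, and Csrp3 did so too after median-ratio scaling. Actn2 stood at 648, 725 and 908 TPM among wild-type libraries, at 793, 874 and 944 TPM among heterozygous and at 751, 698 and 557 TPM among homozygous ones. Every homozygous value was below every heterozygous value, while wild-type and homozygous values overlapped. The log2 change against heterozygous hearts was −0.39 ± 0.15 (SE), or 0.764 of the heterozygous level (limma unadjusted p = 0.0242, adjusted p = 0.663). Against wild type it was −0.18 (95% interval −0.51 to 0.14, adjusted p = 0.429), and heterozygous against wild type 0.21 (−0.12 to 0.53, adjusted p = 0.672).

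Ldb3 stood at 267, 285 and 419 TPM among wild-type libraries, at 349, 378 and 426 TPM among heterozygous and at 373, 392 and 267 TPM among homozygous ones. Wild type 3 and heterozygous 3 were its highest libraries, and the lowest values of wild type and of the homozygotes were alike. Its log2 change of homozygous against wild type was 0.10 (95% interval −0.32 to 0.51, limma adjusted p = 0.755).

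Tcap ranged from 122 to 178 TPM. It stood at 159, 127 and 133 TPM among wild-type libraries, at 146, 123 and 144 TPM among heterozygous and at 157, 178 and 122 TPM among homozygous ones. Homozygous 2 was highest and homozygous 3 lowest, so the group spanned the whole range. The log2 change of homozygous against wild type was 0.11 (95% interval −0.22 to 0.45, limma adjusted p = 0.629). The log2 ratio of Tcap to Ttn within a library, the cap against its titin, was 1.70 ± 0.65 in wild-type, 1.24 ± 0.34 in heterozygous and 1.65 ± 0.27 in homozygous hearts (SD, n = 3 each). Wild type 1, with the lowest Ttn, gave a ratio of 5.34 on the linear scale, against 1.83 to 3.75 in the other 8 libraries. None of the 3 comparisons of this ratio fell below an exact two-sided permutation p = 0.2.

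**Figure D2:**
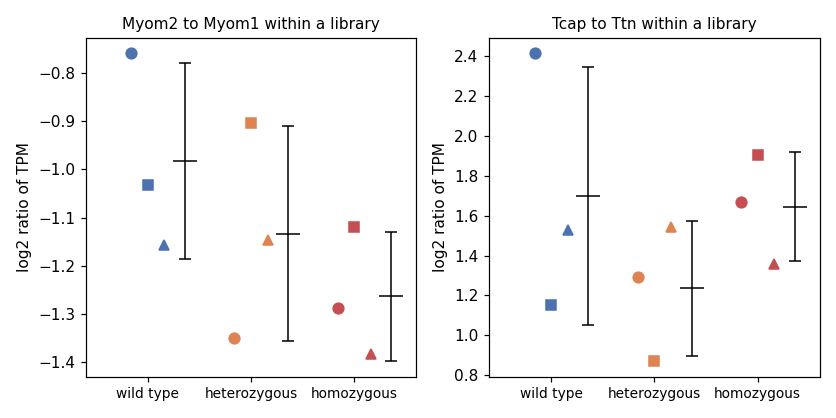
Log2 ratio of TPM within each library (vertical axes) of Myom2 to Myom1, left, and Tcap to Ttn, right, by genotype, with symbols for replicates and a bar for mean ± SD over 3 libraries. The 3 groups overlap in both panels, and the Tcap to Ttn ratio is highest in wild type 1.

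As deposited, Nebl had the largest estimated change of the 9 between homozygous and wild-type hearts, while after median-ratio scaling Actn2 had. Nebl stood at 142, 205 and 235 TPM among wild-type libraries, at 216, 252 and 244 TPM among heterozygous and at 268, 301 and 201 TPM among homozygous ones. Homozygous 1 and 2 were above every wild-type library, and homozygous 3 was below wild type 2 and 3. The log2 change was 0.41 (95% interval −0.01 to 0.84), or 1.33-fold, with a limma adjusted p = 0.209. When limma weighted libraries by their fit (arrayWeights) the change was 0.53 with an adjusted p = 0.0222, the only setting of 24 in which a member was called, and in that setting 37.0% of all genes were called. After median-ratio scaling the change was 0.16 (adjusted p = 0.584). The nebulette gene is also among the longest transcripts of the group, and values by transcript length are given further on.

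Csrp3 was the most abundant member. It stood at 1338, 1275 and 1227 TPM among wild-type libraries, at 1365, 1192 and 1353 TPM among heterozygous and at 1355, 1194 and 999 TPM among homozygous ones. All libraries but homozygous 3 lay within 1192 and 1365 TPM. The log2 change of homozygous against wild type was −0.12 (95% interval −0.38 to 0.13, limma adjusted p = 0.486).

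Mybpc3, on the thick filament, stood at 725, 810 and 1020 TPM among wild-type libraries, at 893, 926 and 1079 TPM among heterozygous and at 954, 969 and 744 TPM among homozygous ones. Its groups overlapped in all 3 comparisons. The log2 change of homozygous against wild type was 0.07 (95% interval −0.26 to 0.39, limma adjusted p = 0.788), and against heterozygous hearts −0.13 (−0.45 to 0.20, adjusted p = 0.873).

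On the per-length scale of TPM, the mean over 9 libraries ran in the order Csrp3 (1255 TPM), Mybpc3 (902 TPM), Actn2 (766 TPM), Ldb3 (351 TPM), Myom1 (257 TPM), Nebl (229 TPM), Tcap (143 TPM), Myom2 (118 TPM) and Ttn (50.5 TPM). The steps from Csrp3 to Myom1, and that from Myom2 to Ttn, held in 9 of 9 libraries, and the steps from Myom1 to Nebl, Nebl to Tcap and Tcap to Myom2 in 8 of 9. The ranges of neighbours did not overlap only for Actn2 over Ldb3 and Myom2 over Ttn. Csrp3 ranked 78th of all genes by mean level and Ttn 1947th. The counting of reads that lie where genes overlap is not given in the sources used here. The levels of Ttn, Myom1, Myom2 and Nebl, which overlap annotated genes on the opposite strand, are therefore less certain. Myom1 also overlaps Gm26561 on its own strand.

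Members whose groups did not overlap were found in 1 of the 3 comparisons. Between homozygous and wild-type hearts 0 of 9 members did not overlap, where 24.7% of tested genes did not. Between homozygous and heterozygous hearts 2 of 9, Actn2 and Ttn, lay wholly lower. Of tested genes 3.85% lay wholly lower, and 15.9% did not overlap in either direction. After median-ratio scaling Ttn overlapped and Myom1, Mybpc3 and Csrp3 joined Actn2, so that 4 of 9 lay wholly lower, against 9.7% of tested genes. Between heterozygous and wild-type hearts 0 of 9 did not overlap, against 13.8%.

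Most tested genes had higher estimates in mutant than in wild-type hearts, and the members' changes are read beside that shift. The median log2 change of all tested genes was 0.23 for homozygous against wild type, with 81.7% of genes above 0, 0.08 for homozygous against heterozygous and 0.15 for heterozygous against wild type. The members' median was 0.10, −0.18 and 0.21 in the same order. In homozygous against wild type 6 of 9 members were above 0 but 1, Nebl, was above the all-gene median. In homozygous against heterozygous 2 of 9, Tcap and Nebl, were above both marks. In heterozygous against wild type 8 of 9 were above 0 and 7 above the all-gene median.

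**Figure D3:**
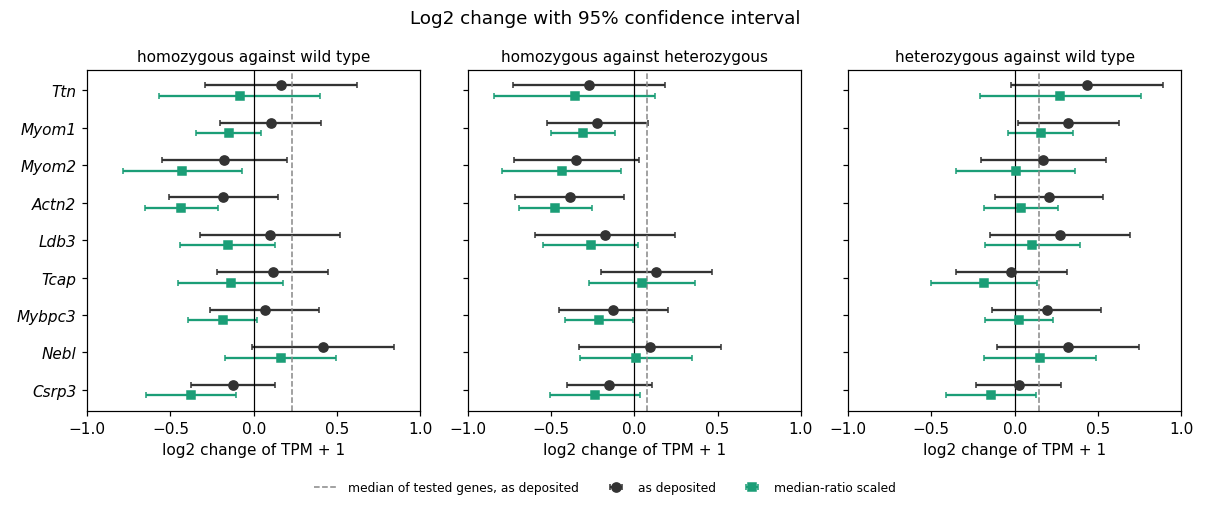
Log2 change of TPM + 1 (horizontal axes) of each gene in 3 comparisons, with 95% confidence intervals, from the values as deposited (circles) and after median-ratio scaling (squares), with the median of all tested genes as a dashed line. For homozygous against wild type only Nebl lies to the right of that line at 0.23, and 5 genes pass from above 0 to below 0 on scaling.

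Libraries were scaled so that the median gene was level (median-ratio factors). The factors were 0.841, 0.867 and 1.032 in wild-type, 1.027, 0.965 and 1.076 in heterozygous and 1.115, 1.147 and 0.998 in homozygous libraries. The shift was therefore not the same in every library, and wild type 3 lay above homozygous 3. This scaling moved the members down in homozygous hearts. All members but Nebl (0.16) then had a change below 0 against wild type, and Ttn, Myom1, Ldb3, Tcap and Mybpc3 turned from above 0 to between −0.084 and −0.19. Actn2 changed by −0.44 ± 0.10 (SE, limma adjusted p = 0.0631), Myom2 by −0.43 ± 0.16 (adjusted p = 0.193) and Csrp3 by −0.38 ± 0.12 (adjusted p = 0.142), and 0 of 9 members were called, against 1.75% of all genes. On this scale Actn2 was 772, 838 and 882 in wild-type and 676, 610 and 559 in homozygous hearts, in scaled TPM. Actn2, Myom2 and Mybpc3, 3 of 9 members, then lay wholly below wild type, against 12.8% of tested genes, and 22.4% of tested genes did not overlap in either direction. Between homozygous and heterozygous hearts Actn2 changed by −0.47 on this scale (limma adjusted p = 0.163), and 4 of 9 members had an unadjusted p under 0.05, against 9.62% of all genes. Quantile normalization, which gives every library the same spread of values, left 6 of 9 members above 0 for homozygous against wild type. Their median was then 0.026, beside 0.0087 for all tested genes, and Actn2 changed by −0.19 (limma adjusted p = 0.566).

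Libraries were also scaled to the mean log level of the cardiomyocyte markers, not to their sum, a choice made after the data were seen. Most of these markers (Myh6, Myh7, Tnnt2, Tnni3, Tnnc1, Actc1, Myl2 and Myl7) are themselves sarcomere genes. A change that the members share with them is therefore removed by this scaling and cannot be seen on it. This brought the change of Actn2 in homozygous against wild type to −0.10 (limma adjusted p = 0.479) and that of Nebl to 0.50 (adjusted p = 0.0680). The values therefore differ between a reading per average gene and a reading per cardiomyocyte marker, and on neither scale was a member called.

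Several libraries stood apart for most members at once. Homozygous 3 was below the 9-library mean for 9 of 9 members and lowest of all for 5, and it was also the library with the lowest cardiomyocyte marker sum and with the thymocyte markers. Heterozygous 3 was above the mean for 9 of 9 and highest for 4. Wild type 1 was lowest for 4 members, with Ttn at −0.71 and Nebl at −0.66 on the log2 scale relative to the mean, while Tcap stood at 0.16.

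**Figure D4:**
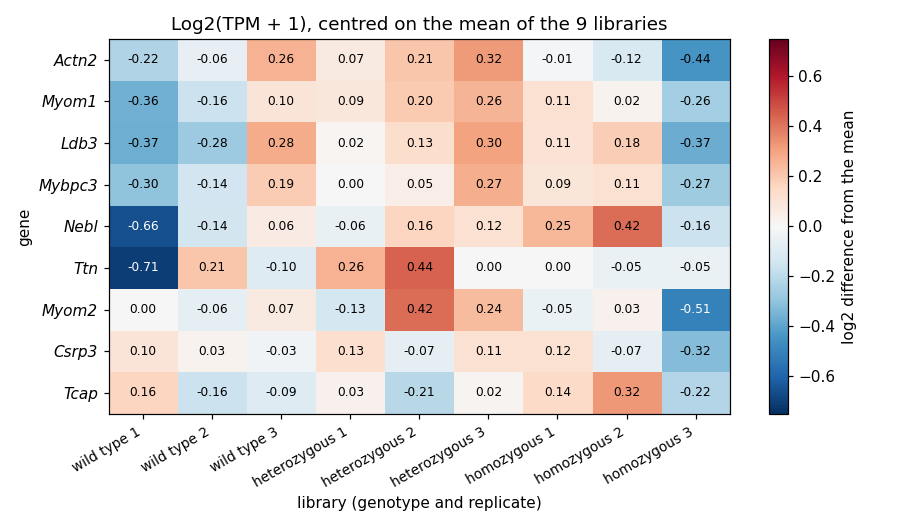
Log2(TPM + 1) of each gene (rows) in each library (columns) as a difference from the gene's mean over 9 libraries, blue below and red above. Homozygous 3 is below the mean in every row and heterozygous 3 is at or above it, while wild type 1 runs from −0.71 for Ttn to 0.16 for Tcap.

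A set of 4 members followed each other across libraries. This set was picked after the values were seen and is given as a description. Among Actn2, Ldb3, Myom1 and Mybpc3, Pearson's r of log2(TPM + 1) over the 9 libraries was 0.83 to 0.98 over 6 pairs, and Spearman's rho 0.77 to 0.97. After subtracting the group means r was 0.95 to 0.99, and after median-ratio scaling 0.80 to 0.93. Without the 2 libraries farthest from the median of the first gene of a pair it was 0.69 to 0.96. Nebl had r of 0.43 to 0.78 with these 4. That was 0.86 to 0.91 after subtracting the group means and 0.10 to 0.48 after median-ratio scaling. Tcap did not follow the 4: its r with the other 8 members ran from −0.48, with Ttn, to 0.46, with Csrp3. With Csrp3 it was 0.75 after subtracting the group means. Ttn had r of at most 0.62, with Myom1. The genes of a library share its depth, its scaling and the composition described above, so these values carry no p.

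Outside the group, the genes whose pattern over the 9 libraries was most like a member's were picked among 9943 genes averaging 5 TPM or more. The closest were Spata5l1 for Ttn (r = 0.937), Letm1 for Myom1 (0.991), Lpl for Myom2 (0.913), Itga1 for Actn2 (0.987), Pde4dip for Ldb3 (0.994), Ndufa4l2 for Tcap (0.936), Ogdh for Mybpc3 (0.994), Zyg11b for Nebl (0.993) and Art3 for Csrp3 (0.953). With 9 libraries and so many genes, values of this size are a description of these libraries.

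The changes of homozygous and of heterozygous against wild type both moved with transcript length over all genes. Among tested genes grouped by longest annotated transcript, the median log2 change of homozygous against wild type was 0.05 under 1 kb, 0.14 from 1 to 2 kb, 0.22 from 2 to 4 kb, 0.29 from 4 to 8 kb and 0.37 over 8 kb. For heterozygous against wild type the medians were 0.028, 0.080, 0.13, 0.19 and 0.28 in the same classes. For homozygous against heterozygous they were 0.013, 0.056, 0.080, 0.090 and 0.084. In wild type 1 the median relative to the 9-library mean fell from 0.02 under 1 kb to −0.46 over 8 kb. Ttn and Nebl, the 2 members over 8 kb, were lowest in that library, while Tcap, the member under 1 kb, was not. Against its own class, Nebl at 0.41 was close to the median of 0.37, Ttn at 0.16 and the 4 members of 4 to 8 kb (Myom1, Myom2, Ldb3 and Mybpc3, −0.18 to 0.10) were below theirs, as were Actn2 and Csrp3, and Tcap at 0.11 was above. The longest Nebl transcript, of 8079 bases, lies just past the 8 kb edge, and the median from 4 to 8 kb was 0.29. Lengths were matched for 97.1% of tested genes, and the part of length in the members' values was not tested.

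**Figure D5:**
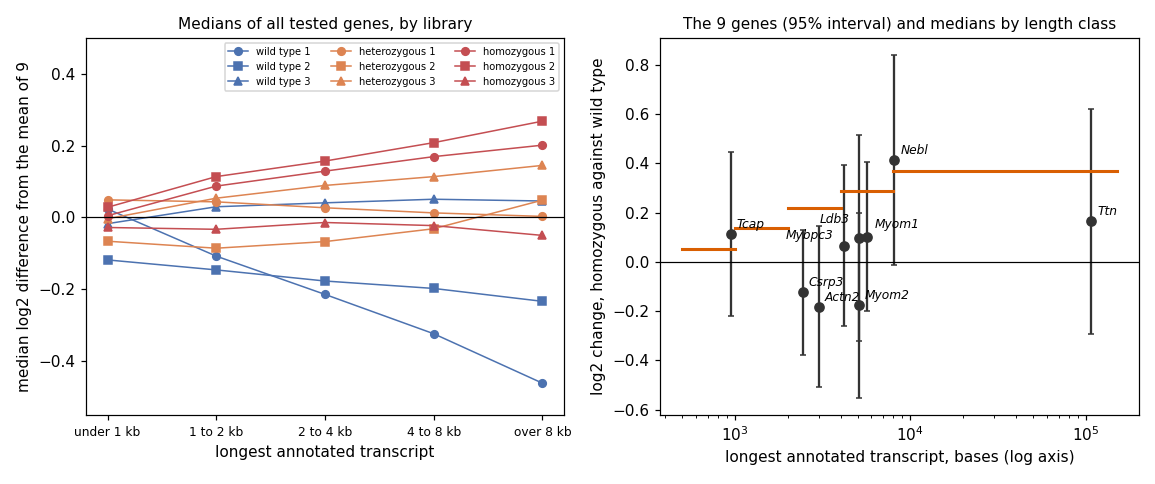
Left, median log2 difference from the mean of 9 libraries (vertical axis) for tested genes in 5 classes of longest annotated transcript, one line per library; wild type 1 falls from 0.02 to −0.46. Right, log2 change of homozygous against wild type with 95% interval for the 9 genes against transcript length (log axis), with class medians as horizontal bars from 0.05 to 0.37.

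A list of related genes held M-band, Z-disc and titin partners, relatives of myosin-binding protein C and of Csrp3, and regulators of titin splicing. Of these 49 genes, 48 were in the table and 42 were tested. None was called in any comparison by limma, while 10, 7 and 3 of 42 had an unadjusted p under 0.05 when homozygotes were set against wild type, homozygotes against heterozygotes and heterozygotes against wild type, beside 25.0%, 7.15% and 6.87% of all genes. Their median log2 change was 0.00, −0.11 and 0.12 in that order, against 0.23, 0.08 and 0.15 for all tested genes. By role, the median for homozygous against wild type was 0.26 over 8 M-band and titin C-terminus partners, −0.03 over 23 Z-disc genes and −0.40 over 5 titin I-band partners. It was 0.004 over 2 myosin-binding protein relatives, 0.04 over 2 LIM-only relatives of Csrp3 and 0.10 over 2 titin splicing regulators.

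The largest estimates of the list were those of Cmya5 and Ankrd1. Cmya5, which encodes a large partner of titin and alpha-actinin, stood at 12.2, 16.6 and 20.7 TPM among wild-type libraries, at 20.5, 25.6 and 24.1 TPM among heterozygous and at 30.1, 35.0 and 18.6 TPM among homozygous ones. Its homozygous libraries overlapped with wild type only through replicate 3, and the log2 change was 0.71 ± 0.24 (SE, limma adjusted p = 0.132). Ankrd1, which encodes a stress-responsive ankyrin repeat protein bound to the titin I-band, stood at 901, 1086 and 880 TPM among wild-type libraries, at 820, 892 and 1052 TPM among heterozygous and at 789, 491 and 562 TPM among homozygous ones. Every homozygous value was below every other library, and the log2 change was −0.66 ± 0.17 against wild type (adjusted p = 0.101) and −0.61 ± 0.17 against heterozygous hearts (adjusted p = 0.495).

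The next estimates for homozygous against wild type were −0.48 for Trim54, −0.44 for Ankrd23 and 0.41 for Csrp2, with limma adjusted p = 0.238, 0.174 and 0.301. The splicing regulators of titin gave 0.24 for Rbm20 (adjusted p = 0.446) and −0.05 for Rbm24 (adjusted p = 0.828). Under the 24 settings Cmya5 was called in 3, Ankrd1 and Csrp2 in 2 each and Ankrd23 in 1 for homozygous against wild type, each of them with arrayWeights among these. After median-ratio scaling 3 of 42 list genes were called, all lower in homozygous hearts than in wild type, where 1.47% of all genes were called lower: Csrp1, a LIM-only relative of Csrp3, by 0.58 on the log2 scale (limma adjusted p = 0.0343), Smpx, a small muscle protein, by 0.53 (adjusted p = 0.0287), and Myoz2, which binds alpha-actinin and calcineurin at the Z-disc, by 0.52 (adjusted p = 0.00902). Each of these was called in this 1 setting of the 24 only. They were named after their values were seen, and as deposited their changes of −0.33, −0.28 and −0.27 had adjusted p = 0.134, 0.137 and 0.163. The smooth muscle marker sum was also lower in homozygous than in wild-type hearts, and its relation to these 3 genes was not tested.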

How the data were processed

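The deposited table holds TPM values per gene symbol that the authors made from E18.5 heart libraries (mRNA capture, adapter trimming with Trim Galore, alignment to mm10 with STAR and quantification with RSEM, per the study's methods). Strand use in counting and the annotation release are not given in the sources used here. The 9 libraries sum to 999100 to 999245 TPM, so sequencing depth cannot be read from them, and no interval for counting error is given. Of 24597 symbols, 26 that a spreadsheet had turned into dates were left out. Genes averaging 1 TPM or more were tested on log2(TPM + 1), which understates changes of low genes, with limma 3.58.1 in R 4.3.3 (all 9 libraries, 3 genotypes, mean-variance trend, Benjamini-Hochberg adjustment, 95% confidence intervals). Groups come from the genotype labels. Nothing in the labels ties libraries to litters, and p-values measure the spread between these samples. The members and lists were chosen with earlier results of these data known. Related genes were named if called, if among the 5 largest changes at a mean of at least 5 TPM, or as titin splicing regulators. Within-library ratios were compared by exact permutation (scipy 1.17.1). Same-numbered libraries correlated at −0.03 to 0.36 after removing group means, and differently numbered ones at −0.31 to 0.12. The highest values were 0.36 for wild type 1 with heterozygous 1 and 0.30 for wild type 3 with heterozygous 3. The main fit did not pair libraries by number, and a fit with the replicate block is given further on. Alternatives covered pseudocount, filter, scaling, weights, design, sex and left-out libraries.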

Additional observations from a re-analysis of the deposited data

How the results depend on the processing

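Depth is unknown, 3 libraries per genotype limit the precision, and with 3 against 3 the ratio tests cannot fall below 0.1. Of 621 member changes recomputed under 23 alternatives, 589 kept their direction and their side of the threshold, 31 turned direction and 1 was called. The causes were not tested.

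For homozygous against wild type, 46 genes were called (26 higher, 20 lower). This count was 240 with median-ratio scaling (39 higher, 201 lower), 71 with quantile normalization (12 higher, 59 lower), 77 when rescaled without mitochondrially encoded and haemoglobin genes, 258 when scaled to the cardiomyocyte markers (226 higher, 32 lower, a choice made after seeing the data), 5068 with arrayWeights, 22 without a filter, 11 with only the 2 groups compared, 17 with the replicate block, 11 without the 3 libraries holding markers of other organs, and 13 to 2170 on leaving out 1 library, the highest without wild type 3 and 247 without homozygous 3. Members called were 1 with arrayWeights. For homozygous against heterozygous the count of 6 became 2 at a pseudocount of 5, 2 without a filter, 13, 11, 10 and 11 under the same 4 scalings in order, 43 with arrayWeights, 0 with only the 2 groups (1095 genes at an unadjusted limma p under 0.05), 1 with the replicate block, 0 with sex as a covariate (469 genes at an unadjusted p under 0.05) and 1 to 6 on leaving out 1 library. For heterozygous against wild type the count of 2 became 1 at a pseudocount of 0.1, 1 at a mean of at least 5 TPM, 5 with median-ratio scaling, 4 with quantile normalization, 4 with arrayWeights, 0 with only the 2 groups (1024 genes at an unadjusted limma p under 0.05), 1 with the replicate block, 1 with sex as a covariate, 5 without the 3 libraries and 1 to 6 on leaving out 1 library. The replicate block called 0 members.

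The members' median change for homozygous against wild type was −0.16 with median-ratio scaling and 0.026 with quantile normalization. For homozygous against heterozygous it was 0.040 when scaled to the cardiomyocyte markers. Directions turned for homozygous against wild type with median-ratio scaling in Ttn (−0.084), Myom1 (−0.15), Ldb3 (−0.16), Tcap (−0.14) and Mybpc3 (−0.19), and without the 3 libraries in Ttn (−0.081) and Csrp3 (0.024). Leaving out 1 library gave ranges of −0.090 to 0.37 for Ttn, −0.0097 to 0.22 for Myom1, −0.027 to 0.30 for Ldb3, −0.0067 to 0.26 for Tcap and −0.043 to 0.20 for Mybpc3. For homozygous against heterozygous, scaling to the cardiomyocyte markers turned Ldb3 (0.040), Mybpc3 (0.091) and Csrp3 (0.068), sex as a covariate turned Nebl (−0.070), leaving out the 3 libraries turned Csrp3 (0.0020), and leaving out 1 library gave −0.027 to 0.26 for Nebl. For heterozygous against wild type, Tcap turned with arrayWeights (0.036) and without the 3 libraries (0.036), Csrp3 turned with median-ratio scaling (−0.14), rescaling (−0.014), cardiomyocyte markers (−0.11) and sex (−0.11), and leaving out 1 library gave −0.085 to 0.078 for Tcap and −0.010 to 0.088 for Csrp3. The log2 ratio of Myom2 to Myom1 for heterozygous against wild type was 0.069 without the 3 libraries, and that of Tcap to Ttn for homozygous against wild type was 0.45 without them and −0.33 to 0.30 on leaving out 1 library.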
